A study of Mus musculus with 6 samples.

Results

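The genes described here are 8 members of the Notch pathway, namely the receptors *Notch1* and *Notch2*, the ligands *Jag1*, *Jag2*, *Dll1* and *Dll4*, the glycosyltransferase *Rfng* and the transcriptional repressor *Hes1*. They were found by symbol among the 20409 rows of a gene count table, 20073 of which carry an Ensembl identifier, and all 8 passed the filter on low counts that kept 13346 rows for testing. The table holds bulk RNA-seq counts of duodenal villus epithelium from 3 double mutant and 3 wild-type mice, 1 library per mouse. The double mutant mice carried Smad4 fl/fl and 1 Ctnnb exon3 fl allele, on a C57BL6-enriched background, together with Villin-CreERT2, a tamoxifen-inducible Cre driven by the Villin promoter in the whole intestinal epithelium. They received intraperitoneal tamoxifen at 0.05 g/kg on 4 days, which removes Smad4 and makes a stabilized β-catenin, and villi were collected at 7 days. The wild-type mice were uninjected littermates, so the mutations and tamoxifen itself cannot be told apart in this comparison. Each group held 1 male, mouse 1, and 2 females, and ages were matched but are not given in the sources used here.

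Notch signaling passes between touching cells. A Jagged or Delta ligand on 1 cell binds a Notch receptor on its neighbour, ADAM proteases and γ-secretase then cut the receptor, and the released intracellular domain (NICD) enters the nucleus and joins RBPJ to switch on targets such as *Hes1*. In the small intestine the pathway is active in the crypts, where *Hes1* represses the secretory factor *Atoh1* and keeps progenitors on the absorptive path, while secretory cells present the Delta ligands. The study stained villi for NICD. The counts address the RNA levels of the genes that send, receive and answer the signal, and they do not measure receptor cleavage.

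The read total per mouse ran from 19678507 to 26337318. Normalized counts are CPM, counts set to a common library size, scaled by edgeR's TMM factors, and 3 counts, taken as the lowest level that can be seen, correspond to 0.114 to 0.153 CPM before this scaling, for counting error only. The 10 enterocyte markers summed to 41250 to 46640 CPM in wild-type and 24220 to 25540 CPM in double mutant mice, with 6 of the 10 lower by edgeR's test (17.0% of all tested genes were lower). *Smad4* had 120 to 180 CPM in wild-type and 26.1 to 36.8 CPM in double mutant mice (edgeR log2 fold change -2.22, adjusted p = 0.000145), as the labels state. Wild-type mouse 1 stood apart from the other wild-type mice over all genes, with a chi-square statistic of 105 and 96.2 per gene against mice 2 and 3, which differed from each other by 30.7. Its 8 goblet markers summed to 126 CPM where mice 2 and 3 of its group had 11660 and 11100 CPM and double mutant mice 4734 to 5127 CPM. Its 8 Paneth markers summed to 7.96 CPM, where the other wild-type mice had 956 and 1593 CPM and double mutant mice 390 to 976 CPM. Its lymphocyte markers (86.9 against 173 and 162 CPM) and stem cell markers (104 against 215 and 229 CPM) were also lower, while its tuft markers (199 against 154 and 222 CPM) lay between the others.

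In the double mutant villi the target *Hes1* and the receptor *Notch2* were higher, and the ligands *Jag2*, *Dll1* and *Dll4* and the fringe enzyme *Rfng* were lower, while *Notch1* and *Jag1* did not pass the test. By edgeR's quasi-likelihood test, 6 of the 8 genes thus reached an adjusted p below 0.05, against 36.8% of all 13346 tested genes, with 2 higher (background 19.7%) and 4 lower (background 17.0%). Their median log2 fold change was -0.22, against 0.02 over all tested genes. The groups did not overlap for 5 of them (background 52.4%), 2 with every double mutant mouse above (background 28.1%) and 3 with every one below (background 24.2%). Scaled by library size alone, 2 members were higher and 1 lower, and this scaling moved the fold changes up by a median of 0.19 over all tested genes. Under it the numbers of genes higher and lower over the whole table went from 2632 and 2273 to 3732 and 1425.

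**Figure D1:**
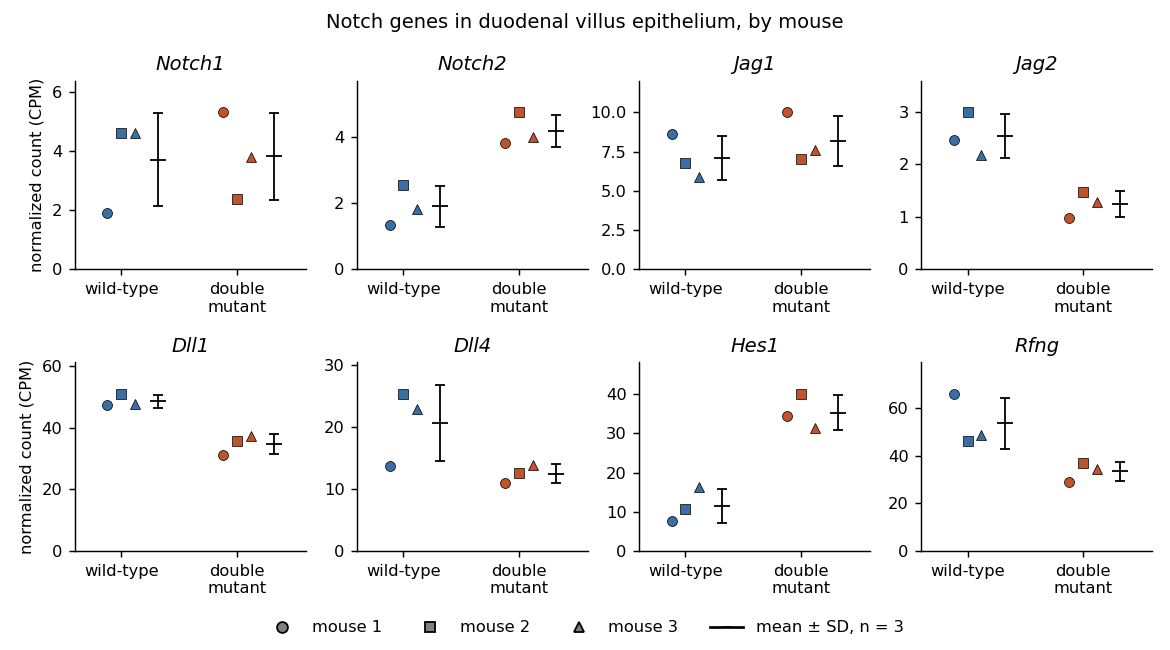
Normalized count (CPM, each vertical axis starting at 0) of the 8 genes in each of 3 wild-type and 3 double mutant mice (circle mouse 1, square mouse 2, triangle mouse 3), with the mean ± SD beside the points. *Hes1* and *Notch2* lay higher in every double mutant mouse, *Jag2*, *Dll1* and *Rfng* lower in every one, and the groups overlapped for *Notch1*, *Jag1* and *Dll4*.

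*Hes1* (ENSMUSG00000022528) encodes a basic helix-loop-helix repressor and is the best known target of Notch in the intestine. It lies on the plus strand of chromosome 16 from 30064470 to 30067882 in mm9. Its normalized count was 7.71, 10.8 and 16.3 CPM in wild-type mice 1, 2 and 3 and 34.6, 40.1 and 31.3 CPM in double mutant mice 1, 2 and 3. The lowest double mutant mouse was thus above the highest wild-type mouse, and the wild-type mice were the more spread out relative to their mean. The mean rose from 11.6 ± 4.34 to 35.3 ± 4.47 CPM (SD, n = 3 mice), a log2 fold change of 1.61 ± 0.256 (SE, edgeR, adjusted p = 0.00222), the largest in size among the 8 genes. No left-out mouse ended the call, and the log2 fold changes of these 6 fits ran from 1.38, without wild-type mouse 1, to 1.93. In bulk samples a change in the number of cells of a type and a change in RNA per cell cannot be told apart. Beside *Hes1*, 6 of 10 crypt stem cell markers were higher (background 19.7%) and 0 lower by edgeR, 0 also at an unadjusted p under 0.05, and the 10 markers summed to 104 to 229 CPM in wild-type and 478 to 611 CPM in double mutant mice. The part of these markers in the *Hes1* result was not tested.

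The 2 receptors were the members with the lowest levels per length of exon in wild-type villi, and 1 of the 2 passed the test. *Notch2* (ENSMUSG00000027878; mm9 chromosome 3, 97817461 to 97954290, plus strand) had 1.33, 2.56 and 1.82 CPM in wild-type mice 1, 2 and 3 and 3.80, 4.73 and 3.99 CPM in double mutant mice 1, 2 and 3, without overlap. These values rest on 32 to 102 counts per mouse. The log2 fold change was 1.14 ± 0.311 (SE, edgeR, adjusted p = 0.0209), a 2.20-fold rise. Leaving out 1 mouse ended the call for 3 of the 6 mice, with an adjusted p of 0.0579 without wild-type mouse 3, 0.0794 without double mutant mouse 2 and 0.0546 without double mutant mouse 3 (edgeR), while the log2 fold change stayed between 0.93 and 1.40. Over all tested genes these 3 fits called 28.9%, 25.1% and 26.5%, against 36.8% with all mice.

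*Notch1* (ENSMUSG00000026923; mm9 chromosome 2, 26313423 to 26372183, minus strand) had 1.92, 4.62 and 4.60 CPM in wild-type mice 1, 2 and 3 and 5.31, 2.37 and 3.80 CPM in double mutant mice 1, 2 and 3. The highest and the lowest values were both from males, and the groups overlapped almost fully. The log2 fold change was 0.05 with a 95% interval from -0.90 to 0.99 (adjusted p = 0.937, edgeR), so a change of up to about that size in either direction lies within the interval. These values rest on 46 to 113 counts per mouse, and the standard error of 0.414 was the largest among the 8 genes. Its direction turned to -0.27 without wild-type mouse 1 and to -0.26 without double mutant mouse 1. The noncoding genes Gm13568 and 0610009E02Rik share 414 and 1068 exon bases with *Notch1* on the other strand but had at most 2 and 19 counts in any mouse.

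The receptors were also compared with each other as a ratio of counts within each mouse, which needs no scaling between libraries. The log2 ratio of *Notch1* to *Notch2* was 0.52, 0.85 and 1.33 in wild-type mice 1, 2 and 3 and 0.48, -0.99 and -0.07 in double mutant mice 1, 2 and 3. It was lower in each double mutant mouse, although double mutant mouse 1 came close to wild-type mouse 1. The means differed by -1.09 (double mutant minus wild-type), with a two-sided p of 0.1 by the exact permutation test, which cannot go lower with 3 mice against 3, and of 0.2 after adjustment over the 4 ratios computed. The difference was -0.69 without double mutant mouse 2 and -1.43 without double mutant mouse 1.

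Among the Jagged ligands, *Jag2* was lower and *Jag1* did not pass the test. *Jag2* (ENSMUSG00000002799; mm9 chromosome 12, 114146801 to 114167706, minus strand) had 2.46, 2.99 and 2.17 CPM in wild-type mice 1, 2 and 3 and 0.986, 1.48 and 1.28 CPM in double mutant mice 1, 2 and 3. The groups did not overlap, with 21 to 32 counts against 43 to 59. The log2 fold change was -1.02 ± 0.323 (SE, edgeR, adjusted p = 0.0371). This call is weak: the adjusted p (edgeR) was 0.116 without wild-type mouse 2, 0.0528 without wild-type mouse 3, 0.108 without double mutant mouse 1, 0.0670 without double mutant mouse 2 and 0.0977 without double mutant mouse 3, and it was under 0.05 only without wild-type mouse 1. Scaled by library size alone, *Jag2* was not called (edgeR log2 fold change -0.83, adjusted p = 0.0731).

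*Jag1* (ENSMUSG00000027276; mm9 chromosome 2, 136907192 to 136942380, minus strand) had 8.62, 6.80 and 5.86 CPM in wild-type mice 1, 2 and 3 and 10.0, 7.0 and 7.59 CPM in double mutant mice 1, 2 and 3. The male of each group was its highest mouse, and the groups overlapped. The log2 fold change was 0.21 (95% interval -0.30 to 0.71, adjusted p = 0.501, edgeR), 0.37 without wild-type mouse 1 and 0.05 without double mutant mouse 1. Within each mouse, the log2 ratio of *Jag1* to *Jag2* counts was 1.80, 1.18 and 1.42 in wild-type mice 1, 2 and 3 and 3.31, 2.22 and 2.55 in double mutant mice 1, 2 and 3, higher in each double mutant mouse. The means differed by 1.23 (p = 0.1 in the two-sided exact permutation test, again its lower limit, adjusted 0.2).

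Both Delta ligands were lower in the double mutant villi. *Dll1* (ENSMUSG00000014773; mm9 chromosome 17, 15504318 to 15513836, minus strand) had 47.3, 51.0 and 47.6 CPM in wild-type mice 1, 2 and 3 and 31.1, 35.7 and 37.5 CPM in double mutant mice 1, 2 and 3. With 662 to 1135 counts per mouse it was among the 2 best counted members, and the groups were well separated. The mean fell from 48.6 ± 2.07 to 34.8 ± 3.29 CPM (SD, n = 3 mice), a log2 fold change of -0.49 ± 0.117 (SE, edgeR, adjusted p = 0.0125), and no left-out mouse ended the call. Scaled by library size alone, the log2 fold change of *Dll1* was -0.29 (adjusted p = 0.0758, edgeR). The secretory factor *Atoh1* had 3 counts in wild-type mouse 1, against 302 and 245 in wild-type mice 2 and 3, while *Dll1* differed little among these 3 mice. Goblet and Paneth markers were low in that mouse too, but its tuft markers summed to 199 CPM and its enteroendocrine markers to 230 CPM. In double mutant mice these panels had 15.5 to 17.2 and 102 to 112 CPM. The part of secretory cells in the *Dll1* result was not tested.

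*Dll4* (ENSMUSG00000027314; mm9 chromosome 2, 119151520 to 119161698, plus strand) had 13.7, 25.3 and 22.9 CPM in wild-type mice 1, 2 and 3 and 11.0, 12.5 and 13.9 CPM in double mutant mice 1, 2 and 3. Wild-type mouse 1, which was low in goblet markers, fell within the double mutant range, and the other wild-type mice lay above it. The log2 fold change was -0.72 ± 0.232 (SE, edgeR, adjusted p = 0.0384), and -0.95 without wild-type mouse 1, the only fit with a mouse left out in which the call held. In the other fits the adjusted p (edgeR) was 0.136 without wild-type mouse 2, 0.111 without wild-type mouse 3, 0.124 without double mutant mouse 1, 0.105 without double mutant mouse 2 and 0.0688 without double mutant mouse 3. *Dll4* is also an endothelial ligand. Of 10 endothelial markers, 6 were in the table and summed to 3.67 to 5.22 CPM in wild-type and 4.82 to 4.98 CPM in double mutant mice. Only 4 could be tested, and 0 of them passed edgeR's test (background 36.8%). *Tek* had an unadjusted p under 0.05 and was higher by library size alone, and *Kdr* was at 0 counts in 5 of the 6 mice. The part of endothelial cells in the *Dll4* result was not tested.

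The noncoding gene Gm14207 shares 214 exon bases with *Dll4* on the other strand and was lower as well, with 98 to 133 counts in wild-type and 50 to 66 counts in double mutant mice (edgeR log2 fold change -0.99, adjusted p = 0.0101). A930024N18Rik shares 867 exon bases with *Dll1* on the other strand, with 23 to 49 counts per mouse (edgeR log2 fold change 0.07, adjusted p = 0.887). The strand setting of the counting is not given in the sources used here, so reads in these shared stretches cannot be assigned to a strand.

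The upstream sequences of the ligands that fell are shown because Smad4 and β-catenin, the proteins altered in these mice, act on transcription through DNA motifs. RefSeq promoter records of build GRCm38.p6 were found for 7 of the 8 genes, all but *Hes1*, giving 8 windows of 250 bases that end at a transcript start, with 2 for *Dll1*. They were searched on both strands for TGGGAA, the core of the RBPJ motif, CTTTGA, the core of the TCF/LEF motif, and CAGACA, part of the SMAD-binding CAGA box. CAGACA was in 3 of the 8 windows, both of *Dll1* and that of *Dll4*, in each as its reverse complement TGTCTG, which is in capitals below. Of all 32851 windows in the table, 17.1% hold it. TGGGAA and CTTTGA were in 0 of the 8 windows and in 21.6% and 13.8% of all windows. The window of *Jag2*, which holds none of the 3 motifs, stands beside them. A match of letters is not a bound site, and the gene counts do not bear on binding.
*Dll1*, downstream start (chr17:15375824-15376073, minus strand): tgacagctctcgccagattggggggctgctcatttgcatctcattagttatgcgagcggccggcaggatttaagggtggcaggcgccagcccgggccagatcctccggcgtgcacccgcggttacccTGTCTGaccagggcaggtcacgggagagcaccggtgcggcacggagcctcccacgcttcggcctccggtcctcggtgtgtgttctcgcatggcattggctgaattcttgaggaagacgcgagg
*Dll1*, upstream start (chr17:15376933-15377182, minus strand): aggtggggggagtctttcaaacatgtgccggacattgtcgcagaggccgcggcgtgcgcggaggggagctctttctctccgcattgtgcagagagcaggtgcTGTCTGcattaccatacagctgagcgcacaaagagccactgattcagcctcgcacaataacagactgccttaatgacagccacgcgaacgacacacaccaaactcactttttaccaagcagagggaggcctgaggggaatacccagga
*Dll4* (chr2:119325534-119325783, plus strand): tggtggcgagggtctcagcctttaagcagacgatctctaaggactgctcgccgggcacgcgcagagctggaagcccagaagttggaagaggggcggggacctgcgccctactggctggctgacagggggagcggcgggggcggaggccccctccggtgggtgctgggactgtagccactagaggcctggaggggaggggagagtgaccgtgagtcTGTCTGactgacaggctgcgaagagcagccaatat
*Jag2* (chr12:112929496-112929745, minus strand): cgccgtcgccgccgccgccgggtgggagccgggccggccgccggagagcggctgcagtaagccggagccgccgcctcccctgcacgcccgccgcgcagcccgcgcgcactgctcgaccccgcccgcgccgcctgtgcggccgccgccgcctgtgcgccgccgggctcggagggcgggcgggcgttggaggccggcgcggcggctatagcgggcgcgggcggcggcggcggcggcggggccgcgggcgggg

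The 2 ligand families were also set against each other. The summed *Jag1* and *Jag2* counts relative to summed *Dll1* and *Dll4* counts had a log2 ratio of -2.46, -2.96 and -3.13 in wild-type mice 1, 2 and 3 and -1.94, -2.50 and -2.53 in double mutant mice 1, 2 and 3, so Delta counts exceeded Jagged counts in every mouse. The means differed by 0.53, with overlap between the groups (exact permutation test, two-sided p = 0.3, adjusted 0.4), although each double mutant mouse lay above the wild-type mice of its own sex. Without double mutant mouse 1 the difference was 0.33. The log2 ratio of *Dll1* to *Dll4* was 1.79, 1.01 and 1.06 in wild-type mice 1, 2 and 3 and 1.5, 1.51 and 1.43 in double mutant mice 1, 2 and 3, a difference of 0.19 (exact permutation test, two-sided p = 0.4, adjusted 0.4). Wild-type mouse 1 had the highest value of all 6 mice, and without it the difference was 0.45, against 0.06 without wild-type mouse 2 and 0.08 without wild-type mouse 3.

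**Figure D2:**
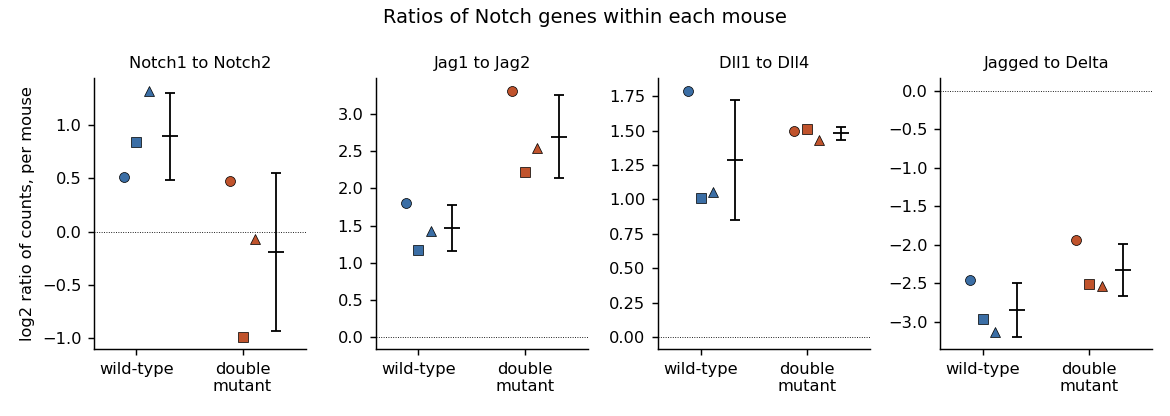
Log2 ratio of read counts between members within each mouse (0.5 added to each count; circle mouse 1, square mouse 2, triangle mouse 3), with the mean ± SD of 3 mice beside the points and a dotted line at equal counts. *Notch1* to *Notch2* lay lower and *Jag1* to *Jag2* higher in every double mutant mouse, while *Dll1* to *Dll4* and Jagged to Delta overlapped between the groups.

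*Rfng* (ENSMUSG00000025158; mm9 chromosome 11, 120642060 to 120645521, minus strand) encodes radical fringe, which adds a sugar to Notch receptors in the Golgi and so tunes their response to Delta and Jagged ligands. It had 65.9, 46.1 and 48.7 CPM in wild-type mice 1, 2 and 3 and 29.1, 36.7 and 34.3 CPM in double mutant mice 1, 2 and 3. The groups did not overlap, and wild-type mouse 1 was the highest of all. The mean fell from 53.6 ± 10.7 to 33.4 ± 3.92 CPM (SD, n = 3 mice), with a log2 fold change of -0.68 ± 0.165 (SE, edgeR, adjusted p = 0.0125). Without wild-type mouse 1 the log2 fold change was -0.51, and the call held whichever mouse was left out and under library size alone. The other fringes had few counts. *Lfng* had 19 to 59 counts per mouse (edgeR log2 fold change -0.21, adjusted p = 0.776), and *Mfng*, with 5 to 21 counts, did not pass the filter.

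**Figure D3:**
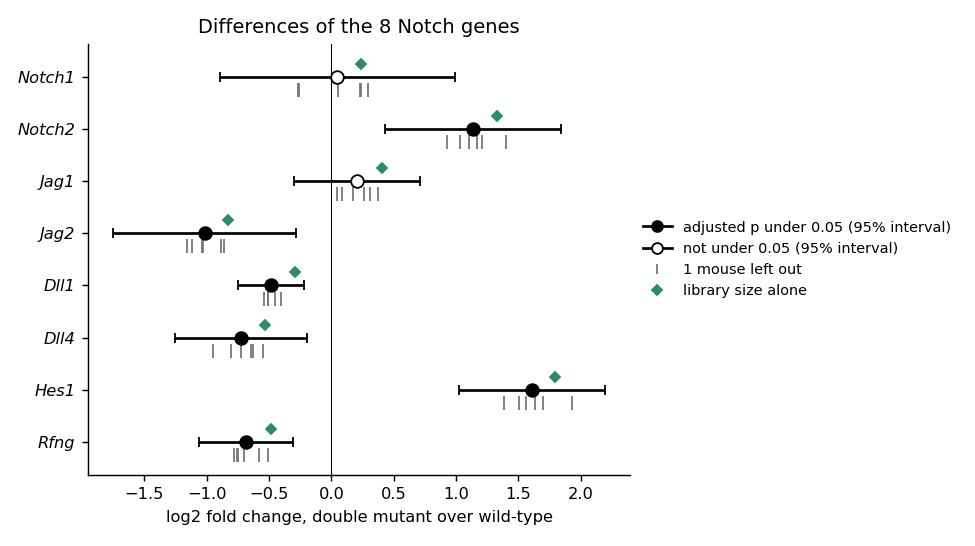
Log2 fold change of each gene, double mutant over wild-type, with its 95% interval (circles, filled where the adjusted p was under 0.05), the values with 1 mouse left out (ticks) and the value with scaling by library size alone (diamonds). *Hes1* lay farthest from 0, from 1.38 to 1.93 with a mouse left out, while the interval of *Notch1* spanned -0.90 to 0.99.

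Levels can be compared roughly between genes per length of exon, in CPM per kb. The length covers the exons of all annotated transcripts, 14 for *Notch1* and 1 for *Jag2*. It can exceed the length of the transcripts present, which lowers the level. In wild-type villi *Rfng* was highest with 21.5 ± 4.31 CPM per kb (SD, n = 3 mice), followed by *Dll1* with 11.5 ± 0.492. *Hes1*, with 5.69 ± 2.13 CPM per kb, and *Dll4*, with 5.35 ± 1.60, came next and overlapped each other. *Jag1* had 1.22 ± 0.241 and *Jag2* 0.627 ± 0.103 CPM per kb. *Notch1*, with 0.261 ± 0.109, and *Notch2*, with 0.181 ± 0.0587, were lowest and also overlapped. In the double mutant villi *Hes1* was highest with 17.3 ± 2.19 CPM per kb, its lowest mouse at 15.4 above the highest *Rfng* value of 14.8. *Rfng*, *Dll1*, *Dll4* and *Jag1* followed in this order without overlap between neighbours. *Notch2* (0.397 ± 0.0468), *Jag2* (0.309 ± 0.0618) and *Notch1* (0.269 ± 0.103 CPM per kb) closed the order, and each overlapped its neighbour.

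**Figure D4:**
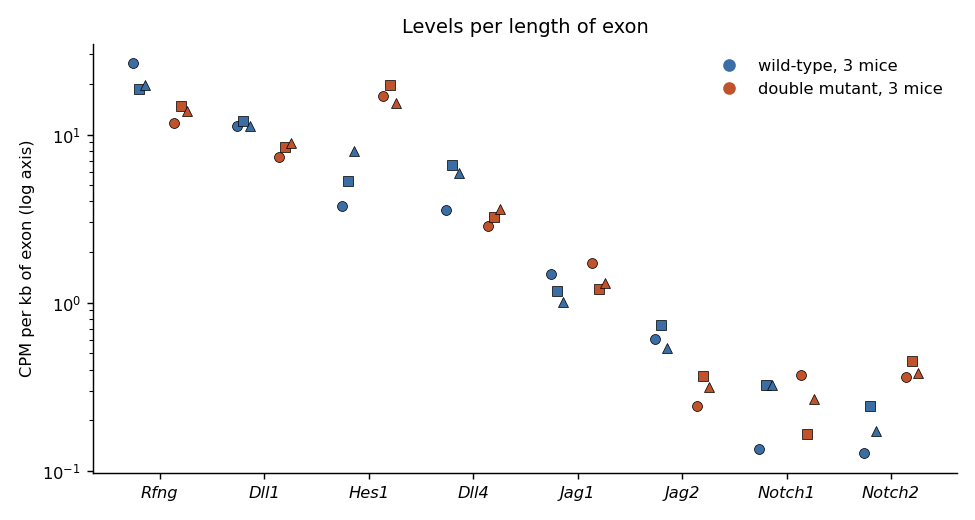
Level of each gene in CPM per kb of exon (log axis) in 3 wild-type and 3 double mutant mice (circle mouse 1, square mouse 2, triangle mouse 3), ordered by the wild-type mean. *Rfng* led in wild-type villi at 21.5 CPM per kb and *Hes1* in double mutant villi at 17.3 CPM per kb, with both receptors under 0.5 CPM per kb in every mouse.

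The rest of the pathway was followed in 8 lists that hold 88 other genes, of which 85 were in the table and 72 were tested. Of these, edgeR called 10 higher and 16 lower, or 36.1%, close to the 36.8% of all tested genes, and their median log2 fold change was -0.13. Without wild-type mouse 1 it called 10 higher and 20 lower, and scaled by library size alone 15 higher and 13 lower, so the balance between the directions depends on the scaling. Among genes that ready the ligand for signaling by ubiquitination and endocytosis, 5 of 7 were lower and 1 higher, where 17.0% and 19.7% of all tested genes were. *Epn1* was 1 of the 5 and lost its call without wild-type mouse 1 (edgeR, adjusted p = 0.101) and by library size alone (0.25), and under the latter *Epn2* was called higher (edgeR log2 fold change 0.95, adjusted p = 0.0269). *Mib2*, a ubiquitin ligase, fell from 63.1 to 72.5 CPM in wild-type to 36.3 to 37.1 CPM in double mutant mice (edgeR log2 fold change -0.90, adjusted p = 0.000573), and *Neurl1a* had 20 to 63 counts in wild-type and 1 to 7 in double mutant mice (edgeR log2 fold change -3.52, adjusted p = 0.0063). *Neurl1a*, also 1 of the 5, passed the filter on low counts only through the wild-type mice, so its direction was fixed by the filter. *Mib1*, the main ubiquitin ligase for Notch ligands, moved the other way (edgeR log2 fold change 0.38, adjusted p = 0.0409).

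Of the 6 tested enzymes that glycosylate Notch besides *Rfng*, 3 were higher and 0 lower by edgeR, with 0 lower also at an unadjusted p under 0.05 (background 19.7% higher and 17.0% lower). *Pofut1*, which adds the fucose that fringes extend, rose by 0.75 on the log2 scale (adjusted p = 0.00335, edgeR), *Poglut1* by 0.87 (adjusted p = 0.0353) and *Xxylt1* by 1.45 (adjusted p = 0.00102). Among 10 genes of receptor cleavage, 2 were higher (background 19.7%) and 3 lower (background 17.0%). The protease *Furin* fell by 0.76 on the log2 scale (adjusted p = 0.00129, edgeR). *Adam10*, which makes the cut that follows ligand binding, did not pass (edgeR log2 fold change -0.37, adjusted p = 0.0552) but was lower without wild-type mouse 1 (-0.46, adjusted p = 0.0205). *Adam17* did not pass either (edgeR log2 fold change -0.20, adjusted p = 0.27). The close paralogs *Aph1b* and *Aph1c* moved apart, with 111 to 131 and 27 to 48 counts for *Aph1b* and 2 to 4 and 14 to 166 counts for *Aph1c* in wild-type and double mutant mice. Reads can be shared between these paralogs, so both values are uncertain, and the *Aph1c* call was lost without wild-type mouse 1 (adjusted p = 0.0538, edgeR). *Aph1c* passed the filter on low counts only through the double mutant mice, so its direction was fixed by the filter.

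The nuclear side of the pathway gave 2 higher and 1 lower gene of 16, or 18.8% called (background 36.8%). With females only 4 were lower, where 2565 of all 13523 tested genes were. By library size alone 0 were lower, where 1425 of all 13346 tested genes were. *Rbpj*, the DNA-binding partner of NICD, had 14.1, 20.4 and 19.9 CPM in wild-type mice 1, 2 and 3 and 25.3, 16.1 and 15.3 CPM in double mutant mice 1, 2 and 3 (a log2 difference of 0.06, adjusted p = 0.86, edgeR). The coactivator *Maml3* rose by 1.63 on the log2 scale (adjusted p = 0.00566, edgeR) and the acetyltransferase *Kat2a* by 2.46 (adjusted p = 0.000692), and the corepressor *Ncor1* fell by 0.76 on the log2 scale (adjusted p = 0.0185), a call lost by library size alone (-0.56, adjusted p = 0.054). Among 12 regulators that act on the receptor, 2 were higher and 3 lower, or 41.7% called, near the background of 36.8%. *Numb*, an inhibitor of Notch, went from 185 to 195 CPM in wild-type to 103 to 108 CPM in double mutant mice (edgeR log2 fold change -0.85, adjusted p = 0.00045). The ubiquitin ligase *Itch*, which promotes turnover of Notch, fell by 1.14 on the log2 scale (adjusted p = 0.000723), and *Nedd4*, of the same enzyme family, rose from 27.1 to 35.9 CPM to 80.6 to 97.0 CPM (log2 fold change 1.5, adjusted p = 0.000258).

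**Figure D5:**
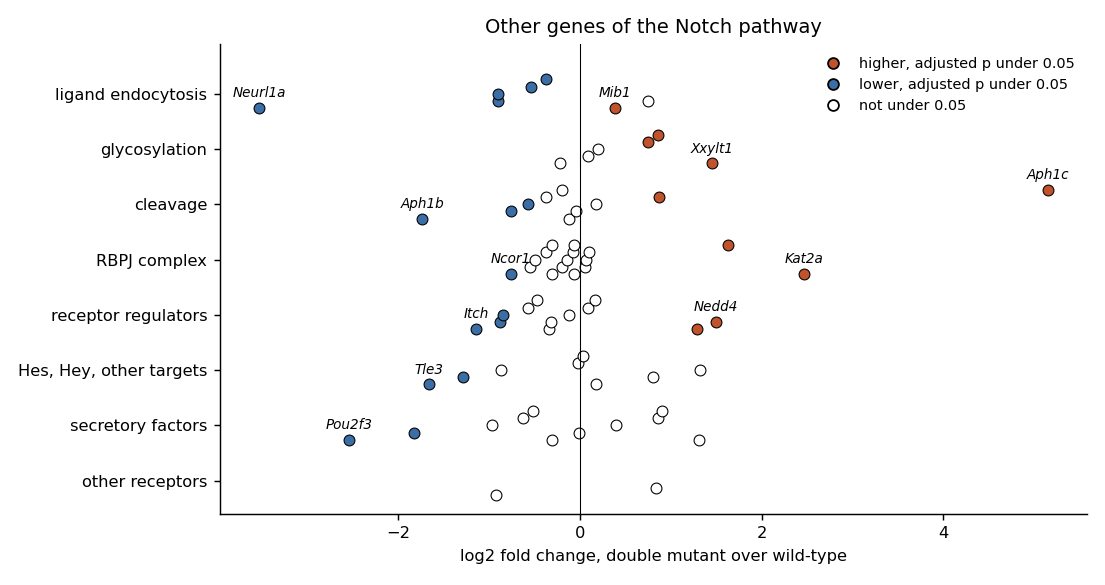
Log2 fold change, double mutant over wild-type, of the 72 tested genes in 8 lists of other Notch pathway genes, with filled circles for an adjusted p under 0.05 (orange higher, blue lower) and the largest called change in each direction named. Of the ligand endocytosis genes 5 of 7 were called lower (background 17.0%), of the glycosylation genes 3 of 6 higher (background 19.7%), and of the RBPJ complex 3 of 16 were called (background 36.8%). *Neurl1a*, 1 of the 5, passed the filter on low counts only through the wild-type mice.

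Other targets of Notch were followed beside *Hes1*. Of 8 tested genes among the Hes, Hey and other targets and their corepressors, 0 were higher and 2 were lower in edgeR's test, 2 of the 8 having an unadjusted p under 0.05, where 19.7% of all tested genes were higher and 17.0% lower. *Nrarp*, a feedback inhibitor induced by Notch and listed with the receptor regulators, had 16.0, 13.2 and 14.1 CPM in wild-type mice 1, 2 and 3 and 14.2, 18.6 and 13.3 CPM in double mutant mice 1, 2 and 3 (edgeR log2 fold change 0.09, adjusted p = 0.71). *Hes6* did not pass (edgeR log2 fold change 0.18, adjusted p = 0.304) but was called higher by library size alone (0.38, adjusted p = 0.0399), and *Hey1*, with at most 5 counts in a mouse, was below the filter. *Hes5* and *Hey2* were not in the count table. *Hes2* fell by 1.28 on the log2 scale (adjusted p = 0.000485, edgeR) and the corepressor *Tle3* by 1.66 (adjusted p = 0.000635). The stem cell gene *Olfm4* had 5.17, 50.4 and 66.8 CPM in wild-type mice 1, 2 and 3 and 133, 92.0 and 80.2 CPM in double mutant mice 1, 2 and 3. Its log2 fold change of 1.32 did not pass (adjusted p = 0.319, edgeR), and without wild-type mouse 1 it was 0.79 and passed (adjusted p = 0.0237). *Notch3* and *Notch4* were the only other receptors or ligands tested, with log2 fold changes of -0.93 (adjusted p = 0.121) and 0.84 (adjusted p = 0.0899, edgeR). *Notch4* was called higher by library size alone (1.02, adjusted p = 0.045, edgeR) and with females only (1.06, adjusted p = 0.0395).

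Among the secretory factors on the branch that *Hes1* represses, the calls of *Atoh1*, *Gfi1* and *Spdef* depended on wild-type mouse 1. Of the 11 tested, 0 were higher by edgeR (background 19.7%) and 2 were lower (background 17.0%), the enteroendocrine factor *Neurod1* (edgeR log2 fold change -1.82, adjusted p = 0.0057) and the tuft cell factor *Pou2f3* (log2 fold change -2.54, adjusted p = 0.00345). Without wild-type mouse 1, 6 of 12 tested were lower, in a fit that called 2783 higher and 2361 lower of all 13769 tested genes. *Sox4* had an unadjusted p under 0.05 and was called higher by library size alone (edgeR log2 fold change 1.49, adjusted p = 0.0434). *Atoh1*, the switch to secretory fate, had 0.125, 16.4 and 12.4 CPM in wild-type mice 1, 2 and 3 and 7.09, 6.59 and 6.50 CPM in double mutant mice 1, 2 and 3. With all mice its log2 fold change was -0.51 (adjusted p = 0.78, edgeR), and without wild-type mouse 1 it was -1.10 (adjusted p = 0.00155). *Gfi1* and *Spdef*, which act after *Atoh1*, passed when that mouse was left out, going from -0.30 and -0.01 with all mice to -0.83 (adjusted p = 0.0316, edgeR) and -0.58 (adjusted p = 0.0337). With females only, which also leaves it out, *Atoh1* passed (adjusted p = 0.00262, edgeR) and *Gfi1* (0.0621) and *Spdef* (0.0656) did not. The summed 8 tuft markers were 154 to 222 CPM in wild-type and 15.5 to 17.2 CPM in double mutant mice, with 7 of 7 tested markers lower, and the 8 enteroendocrine markers 230 to 329 and 102 to 112 CPM, with 6 lower and 1 higher. Of 8 goblet markers 1 was higher and 0 lower, and without wild-type mouse 1 the calls were 1 higher and 4 lower. Of 7 tested Paneth markers 0 were called, and without that mouse 2 of 8 were higher and 3 lower.

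Markers of other cell types that can carry Notch genes were followed as well. The 8 fibroblast and smooth muscle markers in the table summed to 0.272 to 0.96 CPM in wild-type and 0.949 to 6.62 CPM in double mutant mice, the highest in double mutant mouse 1, and 4 of them were at 0 in all wild-type mice. The 10 lymphocyte markers summed to 86.9 to 173 CPM in wild-type and 75.4 to 117 CPM in double mutant mice, with 2 of 8 tested lower (background 17.0%), and 7 of 8 without wild-type mouse 1, a fit that called 2361 of all 13769 tested genes lower. The 7 macrophage and dendritic cell markers in the table summed to 7.66 to 16.0 CPM in wild-type and 10.5 to 14.2 CPM in double mutant mice. Of these, 0 of 4 tested were called by edgeR (background 36.8%), 1 of them, *Itgam*, at an unadjusted p under 0.05. Without wild-type mouse 1, 2 of these 4 were lower, and by library size alone *Itgam* was higher (edgeR, adjusted p = 0.027). Their part in the results for the receptors and ligands was not tested.

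The tested genes nearest to each member were found by the Euclidean distance of mean-centred log2 CPM over the 6 mice. For *Hes1* these were *Wdr75* (distance 0.229), *Nuf2* (0.263) and *Noc4l* (0.293), and for *Notch2* they were *Zdhhc15* (0.201), *Nucks1* (0.277) and *Hmgb2* (0.284). *Dll1* had the closest neighbours of all members, *Map3k11* (0.0733), 1110014N23Rik (0.096) and *Ehd1* (0.1). *Dll4* was nearest to *Mov10* (0.171), *Jag2* to *Agpat9* (0.232), *Rfng* to *Fam83f* (0.126), *Jag1* to *Mpp7* (0.16) and *Notch1* to *Pde4b* (0.359). The 6 points fall in 2 groups, and the distances are a description of these libraries.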

How the data were processed

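Villus epithelium RNA was enriched for polyadenylated transcripts and sequenced as 150 bp paired-end reads. The authors aligned cleaned reads to mm9 with HISAT2 and ran featureCounts on the genes, and the deposited values are its raw counts, 1 column per mouse, without normalization. Mouse numbers and sexes are those of the sample labels, and the study's supplement numbers the mice differently. The strand setting is not given in the sources used here. From these counts, genes were kept by filterByExpr, scaled by TMM and tested with glmQLFit (robust) and glmQLFTest in edgeR 4.0.16 under R 4.3.3, with p-values adjusted over the whole tested table (Benjamini-Hochberg) and a threshold of 0.05. The edgeR steps were also run on simulated counts. These had the same dispersion for every gene and no outlying mouse, so they do not test the steps under the spread of these data. Symbols were found for 20030 identifiers, and positions and exon lengths came from the GENCODE annotation of mm9. Within-mouse ratios used 0.5 added counts and exact permutation tests. Alternatives were DESeq2 1.42.0, RLE factors, library size alone, limma-voom (limma 3.58.1), 2 other filters, a replicate block, sex, each mouse left out, and, added later, females only. The members, lists and markers were chosen with earlier results of these data known. All 8 members are named, and in each list the genes fixed by name, the largest called change in each direction, and some further called genes.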

Additional observations from a re-analysis of the deposited data

How the results depend on the processing

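Leaving out single mice gave 1 to 2 members higher and 2 to 4 lower. These fits called 25.1% to 37.4% of all tested genes, against 36.8% with all mice. All but the fit without wild-type mouse 1 called a smaller share than with all mice. The log2 fold change then ranged from 0.93 to 1.40 for *Notch2*, from -1.16 to -0.86 for *Jag2*, from -0.95 to -0.55 for *Dll4*, from 0.05 to 0.37 for *Jag1* and from -0.27 to 0.30 for *Notch1*. *Hes1*, *Dll1* and *Rfng* kept their calls in all 6 of these fits. The difference of the within-mouse log2 ratios ranged from -1.43 to -0.69 for *Notch1* to *Notch2*, from 0.92 to 1.46 for *Jag1* to *Jag2*, from 0.06 to 0.45 for *Dll1* to *Dll4* and from 0.33 to 0.72 for Jagged to Delta. Under library size alone, 1 member was lower, and *Jag2* (-0.83), *Dll1* (-0.29) and *Dll4* (-0.54) were no longer called. *Dll4* was not called by limma-voom (-0.66), nor *Jag2* without the filter on low counts (-1.01). With females only, an alternative chosen after seeing the data, *Jag2* was not called (-0.89) and *Notch1* turned to -0.58 (adjusted p = 0.164, edgeR). The cause of these changes was not tested. With the replicate block *Jag2* was not called (-1.03), and 3834 in place of 4905 genes were called in all. Mice with the same number also shared their sex, but no litter or day is known to link them, and their deviations had correlations of 0.02, -0.11 and 0.01. *Hes1*, *Notch2* and *Rfng* kept their calls in all 9 settings other than a left-out mouse. Counts were lowest for *Notch1*, *Notch2* and *Jag2*, with as few as 46, 32 and 21 in a mouse, and the parts of depth and of the spread between mice in their errors were not tested.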
